A study of Bos taurus with 8 samples.

Results

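Bovine embryo-derived stem-like cells (eSLCs) of different origin were compared between the nuclear transfer lines N2 and N7 and the in vitro produced lines I2 and I9, which are 4 of the 8 arrays of the series. The members were chosen by their labels alone. NT-eSLCs came from blastocysts made by somatic cell nuclear transfer (NT), in which a cell from the ear skin of HanWoo, the Korean native cattle, was fused to an enucleated oocyte. IVP-eSLCs came from blastocysts produced by fertilization in vitro (IVP). The 4 lines were derived from zona-free blastocysts on an inactivated murine STO feeder layer, all in 3i medium with the inhibitors PD184352, SU5402 and CHIR99021, and were harvested at passage 35 (I2), 30 (I9), 36 (N2) and 30 (N7). Each line was measured once, on a 1-colour Agilent bovine array, so the line is the replicate and each origin has 2. The 2 PA-eSLC lines (P1 and P4, from parthenogenetic embryos) and the cultures of somatic cells (SCs, at passages 5 and 10, grown in DMEM with serum) are used here only as reference levels and for the spread between arrays.

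In nuclear transfer the oocyte has to erase the program of a differentiated nucleus and install that of an embryo, and incomplete reprogramming is known mostly for the placenta and for imprinted genes. The blastocyst holds 3 lineages. The trophectoderm forms the placenta and in cattle secretes interferon tau, pregnancy-associated glycoproteins and trophoblast Kunitz proteins, the hypoblast or primitive endoderm forms the yolk sac and makes blood proteins such as apolipoproteins, and the epiblast forms the fetus.

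All values are normalized signals, the background-subtracted signal of a probe with the 75th percentile of its array set to 1000, and signals under 13.3 were raised to 13.3, which is called the floor here. Signals well above background were found for 71.2% to 76.7% of the spots of an array. The sample labels call the eSLCs embryo-derived stem-like cells. The study describes such cells as putative embryonic stem cells in which the trophoblast gene CDX2 is still expressed. Of the trophectoderm factors, CDX2 lay at 5188 to 10388 and GATA3 at 17128 to 35372 in the 4 lines, against 13.3 and 25.1 to 39.6 in the SCs. Others overlapped the SCs, such as TFAP2A (2757 to 11992 against 9029 and 9777) and MSX2 (12038 to 17835 against 12522 and 9685). Messenger RNA was measured in bulk, so fewer cells of a type and less RNA per cell cannot be told apart.

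Facts on the arrays bear on every result. N2 lay closest to an IVP line: 257 of 10957 genes were 2-fold or more apart between N2 and I9, the fewest of the 15 pairs of eSLC lines, against 2231 between N2 and N7 and 1585 between I2 and I9. Of those 1585 genes, 95.0% had a signal in N2 nearer to I9 than to I2, against 47.7% in N7. Whether the labels of these lines are right was not tested, and every difference between origins rests on them. I2, I9 and N7 were on slide 1 and N2 was on slide 2, which was scanned at another time, so the difference of N2 from the IVP lines cannot be told apart from that of the slide, whereas N7 and both IVP lines shared a slide. The signals that the authors normalized and deposited as a table follow the scanner signals for 33472 probes (Spearman rho 0.989 to 0.996) and less closely for 10165 others (rho 0.811 to 0.882), which are called list probes here. In the authors' values of list probes N2 lay nearer N7 (r = 0.987) than I9 (r = 0.948), and in the scanner signals of the same probes nearer I9 (r = 0.993) than N7 (r = 0.95). The scanner signals are used here, and the authors' values of genes named by the rule are given where they have the other sign in the line described, and for some others.

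Between the means of the 2 NT and the 2 IVP lines no gene was called (limma, Benjamini-Hochberg adjusted p under 0.05 and at least 2-fold, 0 of 10957 genes, 0%). At an unadjusted p under 0.05 there were 306 genes, and among them NT-eSLCs exceeded IVP-eSLCs by 2-fold or more in 63 and fell short by as much in 89. The methods' t-test on the same 4 arrays gave 5 genes higher and 12 lower before adjustment and 0 after it. With 2 lines against 2, a permutation of the arrays cannot give a p below 0.333 for a single gene. Without a test, 594 of 10424 genes that were present in all arrays of either origin differed at least 2-fold between the means (5.7%), 246 higher (2.36%) and 348 lower (3.34%).

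The 2 NT lines contributed unequally. A gene was placed beyond the IVP lines when its signal was at least 2-fold above the higher or below the lower of I2 and I9, with the brighter side well above background. By this rule 438 genes were higher in N7 (3.87% of 11310) and 519 lower (4.59%), against 100 higher (0.884%) and 94 lower (0.831%) in N2, so 8.46% of genes in all for N7 and 1.72% for N2. For comparison 548 genes in P1 (4.85%) lay beyond the same IVP arrays, 357 higher (3.16%) and 191 lower (1.69%), and 227 in P4 (2.01%), 73 higher (0.645%) and 154 lower (1.36%). Only 30 genes were beyond the IVP lines in the same direction in both NT lines (0.265%), 11 higher (0.0973%) and 19 lower (0.168%). In N7 alone there were 927 (8.2%), 427 higher (3.78%) and 500 lower (4.42%), and in N2 alone 164 (1.45%), 89 higher (0.787%) and 75 lower (0.663%). Both counts hold the 20 genes that lay beyond the IVP lines in opposite directions in the 2 NT lines. These genes were chosen on their values, so the counts describe the 4 arrays and carry no test. Of the genes inside the bound, 78 of 438 higher and 140 of 519 lower genes in N7 and 47 of 100 and 46 of 94 in N2 lay within 0.2 of it on the log2 scale, and just outside it, within the same distance, lay 136 and 185 genes in N7 and 108 and 82 in N2. The count for both lines rested on I9: without I9 it was 694, and without I2 it was 79.

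**Figure D1:**
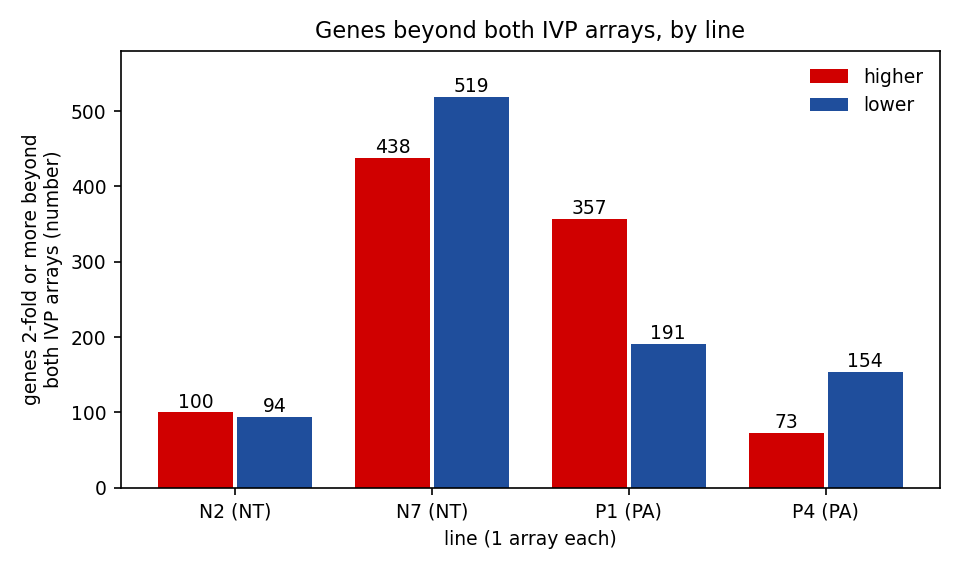
Number of genes with a signal at least 2-fold above (red) or below (blue) both IVP arrays, I2 and I9, in each of the other eSLC lines, of 11310 genes tested. N7 had 438 and 519 such genes and N2 had 100 and 94, while P1 had 357 and 191 and P4 had 73 and 154.

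Among the 11 genes higher in both NT lines, the levels were mostly low. NPPB, the precursor of brain natriuretic peptide, stood at the floor in I2 and at 132 in I9, while N2 reached 499 and N7 443. SCEL, which encodes sciellin, a protein of the cornified envelope of epithelia, measured 158 in N2 and 507 in N7 against the floor in I2 and 43.0 in I9. Both NT lines thus stood above both IVP lines for these genes, but I2 and I9 were themselves apart, and the mean difference of 3.49 (NPPB) and 3.57 (SCEL) on the log2 scale had an adjusted p of 1 by limma.

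BEX5, a brain-expressed X-linked gene, was the 1 gene of the group besides RGCC that was called in N7. It measured 386 in I2, 343 in I9, 880 in N2 and 1087 in N7, with P1 at 635, P4 at 598 and both SC cultures at the floor. The log2 difference from the IVP lines was 1.58 ± 0.14 (SE) in N7, which was called (adjusted p = 0.0253), and 1.27 in N2 (adjusted p = 0.466). B3GALT4, a galactosyltransferase of ganglioside synthesis, was the most even, at 241 and 243 in the IVP lines and 500.4 and 495 in the NT lines, but its 3 probes ran from -0.11 to 1.03 for N7 on the log2 scale. Its brightest probe is a list probe, with authors' values of 0.52 for N7 and 1.66 for N2.

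RGCC, a regulator of the cell cycle, and IGFBP2, an insulin-like growth factor binding protein, were higher in both lines and far more so in N7. RGCC measured 23.3 and 24.1 in I2 and I9, 59.2 in N2 and 944 in N7, and 4840 and 4227 in the SCs. The difference of N7 was called (5.32 ± 0.31 on the log2 scale, adjusted p = 0.00888), while the authors' values of this list probe gave 0.12 for N7 and 2.01 for N2. IGFBP2 was at the floor in I2, 21.6 in I9, 52.7 in N2 and 395 in N7. CELA3B, a pancreatic elastase, TNFRSF9, a receptor of the tumor necrosis factor family, ETS1, a transcription factor, and PRICKLE1, of planar cell polarity, completed the 10 with the largest gaps, and DCLK1, a kinase that binds microtubules, was the last of the 11. CELA3B, TNFRSF9, ETS1 and PRICKLE1 lay at 46.6 to 379 in N2 and 38.8 to 319 in N7. The authors' values of the list probe of PRICKLE1 were -0.75 for N7 and 2.30 for N2.

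The 19 genes lower in both NT lines included several with high IVP signals. SLC6A4, the serotonin transporter, measured 5401 in I2 and 9266 in I9 against 1764 in N2 and 1732 in N7, with 759 in P1 and 728 in P4. The 2 NT lines had nearly equal levels of this gene, 2.00 and 2.03 below the IVP mean on the log2 scale, and the PA lines were lower still. Its second probe gave -0.35 for N7. EPB42, a membrane skeleton protein of red cells, measured 2649 and 1222 in the IVP lines, 143 in N2 and 288 in N7, with 185 and 125 in P1 and P4. GPLD1, a phospholipase that releases GPI-anchored proteins, measured 3904 and 2157 against 879 and 462, with 1529 and 1073 in P1 and P4. MYRFL, a relative of the myelin regulatory factor, measured 431 and 739 against 152 and 98.3, with 59.65 and 52.3 in P1 and P4. In each of these genes the 2 origins did not overlap, which held for 23.3% of all genes (9.75% with NT-eSLCs higher, 13.5% lower), and none passed the test between the means (adjusted p = 1).

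The signal peptides and adhesion proteins of the group showed a wide spread between the IVP lines. ADCYAP1, the neuropeptide PACAP, was 504 in I2 and 94.3 in I9, against 40.1 and 30.6 in the NT lines. TAFA5, a secreted chemokine-like protein, was 934 and 189 against 84.5 and 47.4. CDH13, a cadherin without a transmembrane domain, was 242 and 131 against 57.8 and 23.8, with 42.25 and 56.2 in P1 and P4, and was 13029 and 12194 in the SCs. KCNK12, a potassium channel, was 1974 and 747 against 340.2 and 123. PTPRE, a tyrosine phosphatase, and SLC24A4, a cation exchanger, were low in all 4 lines, with SLC24A4 not well above background in either NT line and at least 3.585-fold lower there, and at the floor in P1 and P4 too. Of all further probes of these genes, well above background or not, the mean of the NT lines was higher than that of the IVP lines in 6 of 8 for the higher and lower in 14 of 19 for the lower genes, and by 2-fold or more in 3 and 7.

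**Figure D2:**
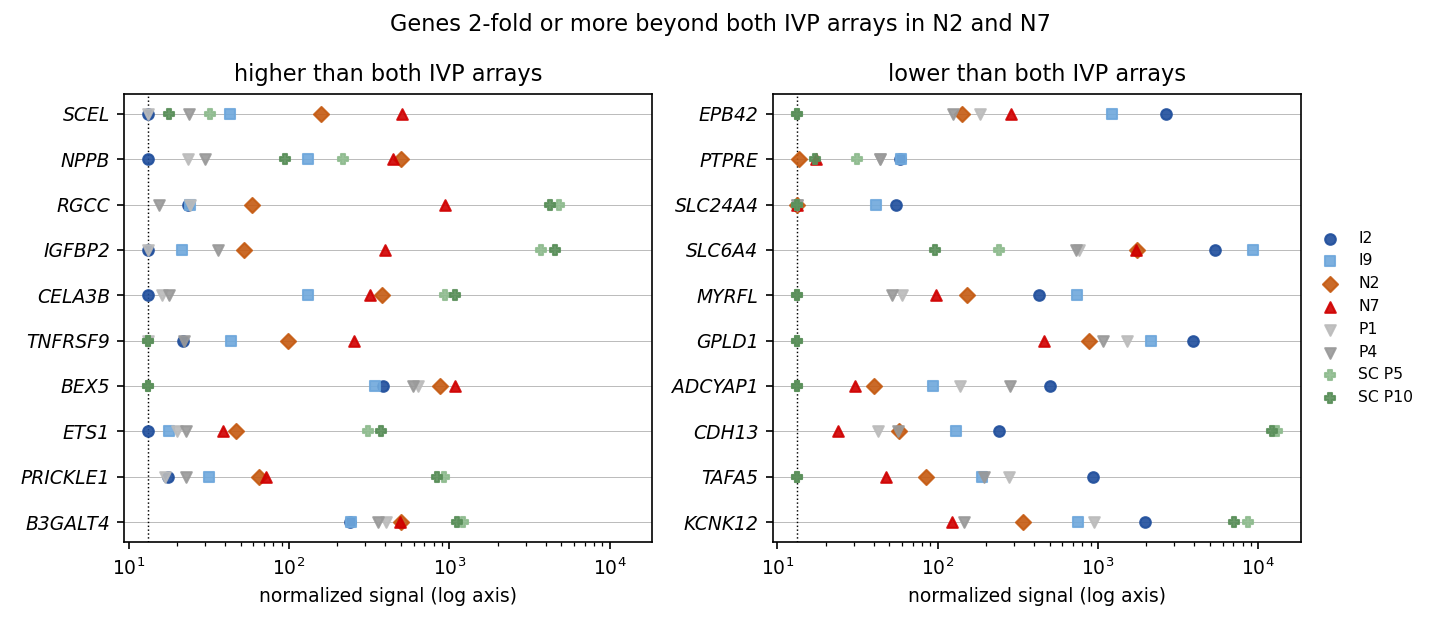
Normalized signal (log axis) on each of the 8 arrays of the 10 genes with the largest gap among those higher (left) and lower (right) than both IVP arrays in both NT lines. The dotted line is the floor of 13.3, and N2 (orange diamonds) and N7 (red triangles) lie on the same side of I2 and I9 (blue) in every row, with RGCC at 59.2 in N2 and 944 in N7.

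N7 against the IVP lines gave 154 called genes (limma with N7 as a group of its own and the spread of the other pairs assumed for it, 11310 genes, 1.36%), 132 higher (1.17%) and 22 lower (0.195%). Of the 132, 85 were not well above background on either IVP array, and 72 entered the test only through N7. For 62 of them all 7 other arrays were at the floor, where the spread that enters the test is the floor's own, and 30 of these 62 were also called after a background correction that sets no floor. N2 against the IVP lines gave 0 called genes (474 at an unadjusted p under 0.05, lowest adjusted p = 0.39). The difference between the NT lines themselves, N7 against N2, was called for 142 genes (1.26%), 118 higher (1.04%) and 24 lower (0.212%) in N7, a comparison that shares the N7 array with the one before. With only the 4 arrays of this comparison in the fit no gene was called for N7 against either.

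The genes highest in N7 alone included products of liver and yolk sac. FETUB, the liver glycoprotein fetuin-B, had a signal of 23723 in N7 and was at the floor in I2, I9, N2 and both SC cultures, which made it at least 1786-fold higher than in the IVP lines. FETUB entered the test only through N7. All 4 of its probes were higher in N7, by 8.68 to 10.80 on the log2 scale. HNF4A, the nuclear receptor that directs hepatocyte and visceral endoderm expression, measured 9035 in N7 against 17.2 in I2, 15.6 in I9 and 20.3 in N2, a log2 difference of 9.11 ± 0.37 (adjusted p = 0.00404), while its 4 probes ran from 0 to 9.11. AHSG, fetuin-A, measured 5574 in N7 against 58.15, 27.3 and 31.2 in I2, I9 and N2, and APOH, an apolipoprotein of plasma, 1279 against the floor in all 3. APOH was at the floor on all arrays but N7 and entered the test only through it.

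The other genes among the 12 are known from varied tissues. COX7B2, a testis form of a cytochrome oxidase subunit, measured 2144, PCP4, a calmodulin-binding peptide of neurons, 2022, and PDE6C, a phosphodiesterase of cone cells, 1694, with I2, I9 and N2 at or near the floor. KLB, the co-receptor of endocrine FGFs, measured 1386, HABP2, a plasma protease, 1267, PRSS35, a serine protease, 1136 and SLC10A4, a transporter of the bile acid family, 947, each with I2, I9 and N2 at the floor. COX7B2, PCP4, PDE6C, KLB, HABP2 and SLC10A4 entered the test only through N7. Of these, COX7B2, KLB, HABP2 and SLC10A4 were at the floor on all other arrays, where the spread in the test is the floor's own. COL18A1, a basement membrane collagen, was the one gene of the 12 with a clear IVP signal, at 348 and 289 against 675 in N2 and 35333 in N7. Its 6 probes ran from 0.17 to 6.80 on the log2 scale in N7, and the authors' values of its list probe gave 3.57 for N7 and 5.35 for N2.

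The genes lowest in N7 alone were expressed in all the other eSLC lines and at the floor in both SC cultures in 9 of the 12 named. BBOX1, the last enzyme of carnitine synthesis, measured 825, 860 and 754.5 in I2, I9 and N2 and was at the floor in N7, a log2 difference of -5.99 ± 0.26 (adjusted p = 0.00455). UNC93A, a membrane protein, measured 2367, 1706 and 1184 against 28.3 in N7, with -6.15 ± 0.27 (adjusted p = 0.00455). GABRP, a GABA receptor subunit of epithelia, measured 520.1, 1021 and 1337 against 24.9 (adjusted p = 0.032), and SMOC2, a matricellular protein, 601, 847 and 532 against 31.8 (adjusted p = 0.041). SMOC2 has a list probe, and the authors' values gave -1.50.

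NRN1, LYZ3, TKDP4, FHIT, RFLNA, RAMP3, PLA2G7 and NTN5 had gaps as large but IVP or PA lines that were too far apart for a call, with adjusted p from 0.0924 to 0.254. TKDP4, a trophoblast Kunitz domain protein, had one of the brightest probes of the array in N2 (308064) and measured 62996 in I2 and 177808 in I9, against 2227 in N7. LYZ3, a stomach lysozyme, measured 407 in I2 and 9749 in I9 and was at the floor in N7. PLA2G7, the phospholipase that breaks down platelet-activating factor, measured 14760, 20836 and 34217 in I2, I9 and N2 and 779 in N7, and here the authors' values of the list probe gave -0.09.

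**Figure D3:**
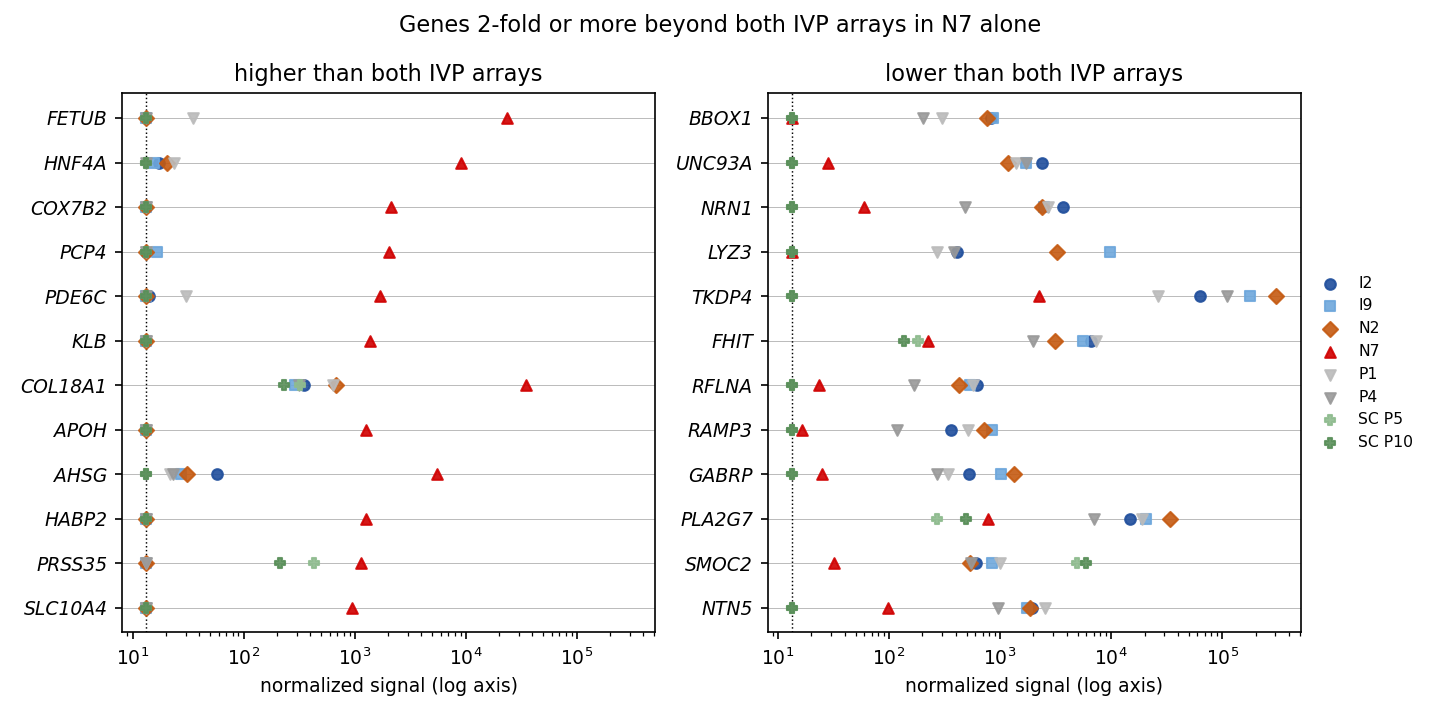
Normalized signal (log axis) on each of the 8 arrays of the 12 genes with the largest gap among those higher (left) and lower (right) than both IVP arrays in N7 while N2 was not beyond them by 2-fold. N7 (red triangles) stands apart from the other 5 eSLC lines in every row, as for HNF4A at 9035 against 15.6 to 20.3 in the IVP lines and N2.

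Other probes of these genes did not choose them, but were read on the same arrays. Of all further probes of the same genes, well above background or not, 355 of 503 were higher in N7 than the IVP mean for the genes higher in N7 alone, 284 of them by 2-fold or more, and 475 of 575 were lower for the lower genes, 349 by 2-fold or more. Of the genes higher in N7 alone, 145 of 427 rest on a list probe, and of the lower 297 of 500. Of the 175 other probes of those 145 genes, which are no list probes, 117 were at least 2-fold higher in N7 than the IVP mean by the scanner signals and 134 by the authors' own values. Of the 339 other probes of those 297 genes, 194 and 155 were at least 2-fold lower. With the list probes themselves, the authors' values placed 3 of the 145 and 15 of the 297 genes in the same class, and with the probes that are not list probes 268 of 282 and 201 of 203.

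Gene lists of cell types and functions showed where the 2 NT lines parted. Of 18 hypoblast and primitive endoderm factors tested, 9 were higher in N7 than both IVP lines, 1 was lower and none was beyond them in N2, with a median log2 difference from the IVP mean of 1.48 in N7 and 0.26 in N2, against -0.01 and 0 over all genes. The 3 called included HNF4A and NR5A2. NR5A2, an orphan nuclear receptor and the 1 member tested only because N7 had it above background, measured 113 in N7 and was at the floor in I2, I9 and N2 (adjusted p = 0.00267), and its 3 probes ran from 0 to 3.08 on the log2 scale. GATA4, an endoderm factor, measured 2922 in N7, 180 in I2, 38.4 in I9 and 23.2 in N2, and PDGFRA, a receptor of primitive endoderm and mesenchyme, 1424 against 52.2, 83.35 and 119, both without a call. Both have list probes, and the authors' values for N7 were -1.62 for GATA4 and 0.00 for PDGFRA. The basement membrane genes SPARC, COL4A1 and LAMC1 were also higher in N7, by 1.73 to 2.59. BMP2, a signaling factor of endoderm, was the lower one, at 135.5 in N7 against 338 and 569.5 in I2 and I9 and 622 in N2. The endoderm factors FOXA3 (-1.06), FOXA1 (-0.74) and SOX17 (0.07) and the adaptor DAB2 (-0.18) lay within the bound. The shares over all genes were 3.87% higher and 4.59% lower in N7.

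Of 33 liver, gut and yolk sac products, 13 were higher in N7 and 1 lower, and none was beyond the IVP lines in N2. Over all genes 3.87% were higher and 4.59% lower in N7. Of these 33, 6 were tested only because N7 had them above background, APOH, SLC2A2 and GC among them, and could be beyond the IVP lines only as higher in N7. Of the other 27, 9 were higher and 3 called. The summed signal of the list was 66580 to 76679 in I2, I9 and N2, 130040 in P1, 84516 in P4 and 223790 in N7. APOA1, the main protein of high-density lipoprotein, made up a large share of it, with 112754 in N7 against 2659 in I2, 1098 in I9 and 1486 in N2 (log2 difference 6.04 ± 1.21, adjusted p = 0.167). Its 3 probes gave 6.04 to 7.52 for N7, while the authors' value of the list probe was -1.03. APOC3, APOH, TF, FGA, AHSG, SLC2A2 and GC were called. TF, transferrin, measured 460.2 in N7 against 25.3 in N2 and the floor in I2 and I9, and SLC2A2, the glucose transporter of liver, 263 against the floor in all 3. S100G, a calcium-binding protein of gut and placenta, was the lower gene, at 381 in N7 against 3933, 4918 and 6215. The other 19 lay within the bound. Among them AFP (-0.50), TTR (-0.33), AMBP (-0.66) and HPX (-0.44) lay below the IVP mean in N7, and APOE (0.69) and APOM (1.04) above it. ALB measured 23.8 in N7 against the floor in I2, I9 and N2. FABP1, FABP2, CUBN and CDX1 were at the floor in I2, I9, N2 and N7.

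Of the retinoid and lipid binding genes several were higher in N7, with 9 of 15 higher and 1 lower, beside 3.87% and 4.59% over all genes. Without RBP5, which was tested only because of N7, 8 of 14 were higher. ALDH1A1, which makes retinoic acid, measured 409 in N7 and was at the floor in I2, I9 and N2 (adjusted p = 0.00109), and RBP5, a retinol binding protein, was called at 31.4. RBP4, the retinol carrier of plasma, measured 3125 in N7 and 211 to 449 in the other 3 lines, while the authors' value of its list probe for N2 was 4.33.

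Of 25 secreted products of the ruminant trophoblast tested, 7 were lower in N7 than both IVP lines, 1 was higher and 17 lay within the bound, with a median of -1.64 in N7 and 1.03 in N2, and none was called. The lower genes were TKDP4, the pregnancy-associated glycoproteins PAG10, PAG12 and PAG15, the prolactin-related protein PRP2, SSLP1 and PLAC8A. In N7 4.59% of all genes were lower and 3.87% higher. PAG12 measured 8761 in I2, 42578 in I9 and 47652 in N2 against 4016 in N7, so the IVP lines themselves were several-fold apart. PRP2 and PRP4 were not well above background in N7 and had 343 and 321 in I2 but 29.2 and 25.6 in I9. The members of each of these families are close in sequence, and the signal of a probe can hold that of its relatives.

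The interferons of the trophoblast had higher signals in N7. IFNT3, an interferon tau gene, measured 61582 in N7, 1171 in I2, 1199 in I9 and 553 in N2, and 9157 in P4. IFN-tau-c1 measured 2660 in N7 against 42.05 and 41.0 in the IVP lines and was not well above background in N2, and IFNW1, of the related omega family, 7771 against 101, 99.5 and 40.5. Signals of these near-identical genes cannot be told apart by their probes, so the values of single genes are uncertain. P1 had 146 of IFNT3, and the adjusted p for N7 was 0.44 for IFNT3, 0.322 for IFN-tau-c1 and 0.401 for IFNW1. The probe of IFNT3 is a list probe, with an authors' value of -1.56 for N7, and its 2 probes gave 5.70 and 6.24 in the scanner signals. Of 19 interferon-stimulated genes 1 was higher (IRF1) and 1 lower (PSMB8) in N7, beside 3.87% and 4.59% over all genes. ISG15, a ubiquitin-like protein that interferons induce, was the 1 gene of the list higher in N2, beside 0.884% over all genes. It measured 801 in N7, 673 in I9, 1419 in N2 and 67.0 in I2.

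Trophectoderm transcription factors and epithelial genes held few genes beyond the bound. Of 16 factors, HAND1 and HEY1 were lower in N7, at 1668 and 126, and none was beyond the IVP lines in N2. Over all genes 4.59% were lower in N7. The median of the factors was -0.48 in N7 and -0.03 in N2, against -0.01 and 0 over all genes. Of 19 keratins and junction genes none was beyond the IVP lines in N7, with KRT19 the most different, at 82301 against 151352 and 126564 in I2 and I9, and 1 was higher in N2. That gene, KRT18, and the housekeeping genes RPLP0 and RPS18, both higher in N2, are among the brightest of the array. The highest signal of an array lay within 516981 to 631882 scanner units in these 4 arrays while their 75th percentiles ran from 1192 in N2 to 4092 in N7, so that the highest normalized signal was 433709 in N2 and 151828 in N7. The part of this limit in the differences of the brightest genes was not tested.

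**Figure D4:**
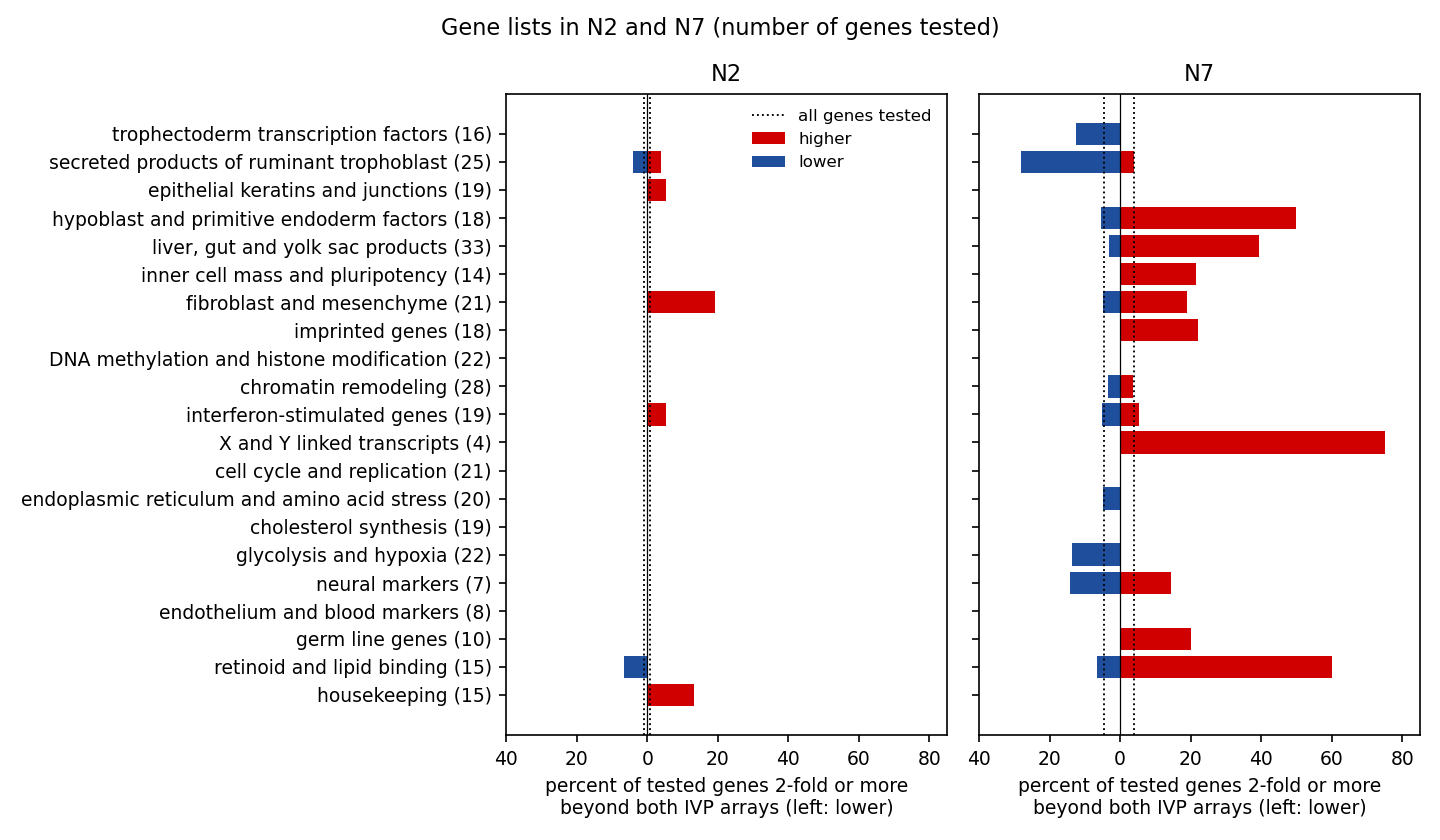
Percent of each list's tested genes (number in brackets) with a signal at least 2-fold above (red, right) or below (blue, left) both IVP arrays in N2 (left panel) and N7 (right panel). Dotted lines give the percent over all 11310 genes, and the lists of endoderm factors (9 of 18), liver products (13 of 33), retinoid binding (9 of 15) and the Y-linked genes (3 of 4, all 3 tested only because of N7) reach furthest in N7.

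Of 14 pluripotency genes 3 were higher in N7, beside 3.87% of all genes, and of the 10 that were not tested through N7 alone 2. The transcription factors SALL4 (949 to 1466) and KLF4 (564 to 991) had the highest signals of the list in the 4 lines. POU5F1, the core pluripotency factor OCT4, measured 899 in N7 against 50.6 in I2, 30.8 in I9 and 45.2 in N2, a log2 difference of 4.51 ± 0.54 that missed the threshold (adjusted p = 0.0611). Its 2 probes were alike in the scanner signals, at 4.24 and 4.51, and the authors' value of the list probe was -1.265. LEFTY2, an inhibitor of NODAL, measured 143 in N7 and 29.4 to 51.0 in the other 3, and NODAL itself measured 39.4 in N7 alone, against the floor on all other arrays, and so entered the test only through N7 (adjusted p = 0.0133). The authors' value of LEFTY2 for N2 was 3.01. SOX2 measured 99.5 in N7 and 50.6 to 64.9 in the others at its brightest probe, a list probe, while its 3 probes ran from -0.08 to 5.085 for N7.

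For imprinted genes, of which the parental origin decides expression, 4 of 18 were higher in N7, beside 3.87% of all genes. None was lower in N7, and none was beyond the IVP lines in N2. IGF2, the growth factor expressed from the paternal copy, measured 2672 in N7 against 392 in I2, 310.1 in I9 and 242 in N2, and its 11 probes ran from -0.60 to 3.29. NNAT, GRB10 and TSSC4 were the others, by 1.07 to 1.97. Of the 4 genes only NNAT was higher in another eSLC line than in N7, at 1002 in P1 against 491. None of them was called, and the authors' value of the list probe of NNAT was -1.17 for N7. PHLDA2, which restrains placental growth, measured 62247 in I2 and 3960 in I9, with 4253 and 4274 in the NT lines, so N2 and N7 were at the level of I9. The authors' values of its list probe were 0.68 for N7 and 2.42 for N2.

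Chromatin genes that the study names for this comparison gave no call in N7 or between the means. The study reports HMGA1, PADI4 and CHD1L as higher in NT- than in IVP-eSLCs, and says that real-time PCR gave the same patterns. The PCR is not part of these data. HMGA1, a high mobility group protein, measured 80568 and 85075 in I2 and I9, 138414 in N2 and 77633 in N7, and the mean difference of 0.32 was not called. PADI4, which deiminates histones, measured 2484 in I2, 10552 in I9, 16550 in N2 and 1027 in N7, so the NT lines lay on both sides of the IVP lines. CHD1L, a chromatin remodeler, measured 5107 and 4048 against 3329 and 4268. SYCP3, of the synaptonemal complex, was higher in N7 alone, at 1499 against 574, 444 and 476. PADI2 is not reported here. Over the 28 genes of the list 1 was higher and 1 lower in N7 and none in N2, beside 3.87% higher and 4.59% lower in N7 over all genes. All 4 of these genes have list probes, whose authors' values were 3.29 for HMGA1 in N2 and 1.49 in N7, 2.11 and 0.40 for PADI4, 2.07 and 0.30 for CHD1L, and -0.10 and -1.83 for SYCP3.

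The enzymes of DNA methylation and histone modification gave no gene beyond the bound: of 22 genes none was beyond the IVP lines in either NT line. DNMT3A, a de novo DNA methyltransferase, measured 35199 in I2 and 5224 in I9, with N2 (4271) at the level of I9 and N7 (23990) near that of I2. DNMT3B showed the same order, at 751, 126, 100.1 and 506. The authors' values of the list probe of DNMT3A were 0.92 for N2 and -0.50 for N7. Likewise none of 21 cell cycle, 19 cholesterol synthesis or 8 endothelium and blood genes was beyond the IVP lines in N7 or in N2, beside shares of 8.46% and 1.72% over all genes, at which lists of this size hold few such genes. Glycolysis and hypoxia genes had 3 of 22 lower in N7 and a median of -0.76, with PFKP, a phosphofructokinase, at 1009 against 4034, 4279 and 4229 (adjusted p = 0.0541). Several glycolysis genes, such as GAPDH and ENO1, are among the brightest of the array. The highest normalized signal was 224231 in I2, 213616 in I9 and 151828 in N7, and the part of this limit in the median of the list was not tested. DDIT4, which restrains mTOR signaling under stress, was the one of 20 stress genes, at 8591 in N7 against 52595, 39163 and 44892. Of 10 germ line genes 2 were higher in N7, TEX12 and MAEL, at 1896 and 506, and none was lower, beside 3.87% and 4.59% over all genes. The authors' value of TEX12 for N2 was 4.675. Of 7 neural markers 1 was higher in N7, NES, at 3741 against 1048, 1509 and 2094 in I2, I9 and N2. The 1 lower was PAX6, a neural factor, at the floor in N7 against 109 to 151 in the other 3. Its 3 probes ran from -3.14 to 0, and the authors' value of its list probe was -0.45.

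Of 4 Y-linked transcripts tested, 3 stood above the floor in N7 and in no other of the 4 lines. EIF1AY measured 514, DDX3Y 758 and USP9Y 186 in N7, and all 3 were at the floor in I2, I9 and N2, in P4 and in both SC cultures. DDX3Y was marked well above background in I9 at that level. These 3 were tested only because of N7, among them EIF1AY (adjusted p = 0.000859). The other gene, ZFY, lay at 66.8 to 150.1 in the 4 lines and was well above background in each. DDX3Y (369) and USP9Y (157) were also above it in P1, a line labelled parthenogenetic. Whether the labels of P1, N2 and I9 name the right embryos was not tested. Signals of genes on the Y chromosome thus divide the NT lines from each other, and whether sex has a part in the other differences of N7 was not tested.

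The genes named for N2 alone had smaller gaps than those named for N7 alone, at most 2.79 against at least 4.18 on the log2 scale. TAGLN, CNN1 and ANKRD1, of contractile cells, measured 782, 1036 and 1057 in N2. I9 had 151, 268 and 305 of them, I2 27.9, 84.4 and 17.4, and the SCs 9936 to 65029. Each was higher in SC P10, on the slide of N2, than in SC P5, with ANKRD1 at 34472 and 9936. The 2 probes of CNN1 gave 0.01 and 2.78 for N2 on the log2 scale. Of all 91 further probes of the 89 genes higher in N2 alone, 28 were 2-fold higher. ACTA2, POSTN, S100A4 and TAGLN made 4 of 21 fibroblast and mesenchyme genes that were higher in N2, and FN1, LUM, FBLN1 and CDH2 were 4 others higher in N7, where FBLN1 was called (adjusted p = 0.0233). THY1, a surface marker of fibroblasts, was the 1 lower gene in N7, at 103 against 1002 and 1273 in I2 and I9. The shares over all genes were 0.884% higher in N2, and 3.87% higher and 4.59% lower in N7. The summed signal of this list was 14947 in I2, 38164 in I9, 48252 in N2, 76600 in N7 and at least 1144510 in the SCs. Of the defining fibroblast genes VIM was at 1235 to 4414, COL1A1 at 919.8 to 2297 and LUM and POSTN at 13.3 to 99.1 in the 4 lines, and the part of such cells in the result was not tested. RGR, EDN1 and SCRT1 measured 45.9 to 78.4 in N2 and 13.3 to 18.0 in the IVP lines.

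Among the genes lower in N2 alone, GPR21, an orphan receptor, measured 4368 and 4031 in the IVP lines and 583 in N2, KANK2, a cytoskeletal adaptor, 7060 and 6799 against 1560, and UCHL1, a ubiquitin hydrolase of neurons, 1736 and 865 against 214. TMEM184B, RBM38 and EPYC were the others named by the rule. The SC arrays, which differ in slide and in passage, differed in several of them, and slide and passage cannot be told apart there. SC P10, on the slide of N2, was at least 2-fold below SC P5, on the slide of the IVP lines, for 25 of these 75 genes (33.3%), against 1.75% of all genes. GPR21 was 1305 in SC P5 and 241.5 in SC P10, and TMEM184B 4507 and 887. For the 89 genes higher in N2 alone SC P10 was 2-fold above SC P5 in 6 (6.74%), against 1.25% of all genes. Of all 76 further probes of the lower genes 8 were 2-fold lower. The authors' values of the list probes of TMEM184B (0.79) and RBM38 (1.015) had the other sign in N2. Since the IVP lines and N2 lie on different slides, line and slide cannot be told apart for N2.

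In 20 genes the NT lines moved apart on both sides of the IVP lines, 13 higher in N7 and lower in N2 and 7 the reverse. SOCS3, the feedback inhibitor of JAK-STAT signaling, measured 247 in I2, 496 in I9, 1806 in N2 and 21.6 in N7. MMP9, a matrix protease, measured 273, 3275, 8040 and 113. Both have list probes, and the authors' values of both were higher in N7, by 1.88 and 3.76. FABP3, a fatty acid binding protein, was higher in N7 (16107) and lower in N2 (899) than I2 (3630) and I9 (1808).

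Shifts of whole chromosomes set the lines apart as well, a pattern looked for after the values were seen. Over 9345 genes well above background on all 8 arrays and placed on a chromosome by the RefSeq table of assembly ARS-UCD2.0, the signal of each gene was compared with its median over the 6 eSLC lines. On chromosome 4 (252 genes) the median was 0.39 in I9, 0.39 in N2 and 0.45 in N7, and -0.42 in I2, -0.39 in P1 and -0.37 in P4 on the log2 scale. N7 exceeded I2 in 85.3% of these genes. Both NT lines and I9 were therefore higher for this chromosome, and the median difference between the NT and IVP means was 0.45, though 1 of the IVP lines shared the higher level.

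The other shifts were seen in 1 or 2 lines. On chromosome 14 (200 genes) the median was -0.37 in N7 (quartiles -0.70 and -0.06) and -0.07 to 0.08 in the other 5 lines, and N7 was below both IVP lines in 73.0% of the genes. On chromosome 23 (292 genes) it was 0.26 in N2 (quartiles 0.04 and 0.53) and -0.07 to 0.01 in the others. On chromosomes 5 (550 genes) and 12 (141 genes) I9 and N2 shared a higher level, 0.22 and 0.21 on the former and 0.20 and 0.18 on the latter, with N7 at -0.13 and -0.04. The medians of the other 25 chromosomes lay between -0.08 and 0.08 in I2, N2, N7, P1 and P4 and between -0.17 and 0.02 in I9.

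The shifts on chromosomes 4, 14 and 23 were present in both kinds of probe. On chromosome 5 the authors' values of list probes were 0.23 in I9, 0.20 in N2 and 0.14 in N7, so N7 did not stand apart there. On chromosome 14 N7 had -0.40 for list probes and -0.27 for other probes in the scanner signals, and -0.20 and -0.34 in the authors' values. On chromosome 4 it had 0.53 and 0.33, and 0.61 and 0.58. On chromosome 23 N2 had 0.25 and 0.28, and 0.24 and 0.33, but in the authors' values of list probes N7 had 0.12 there. Chromosome 14 held 28 of the 500 genes lower in N7 alone (5.6%) and 2.16% of the genes tested, and chromosome 23 held 10 of the 89 genes higher in N2 alone (11.2%) and 3.17% of those tested. Neither the DNA nor the karyotype of the lines was analysed here.

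**Figure D5:**
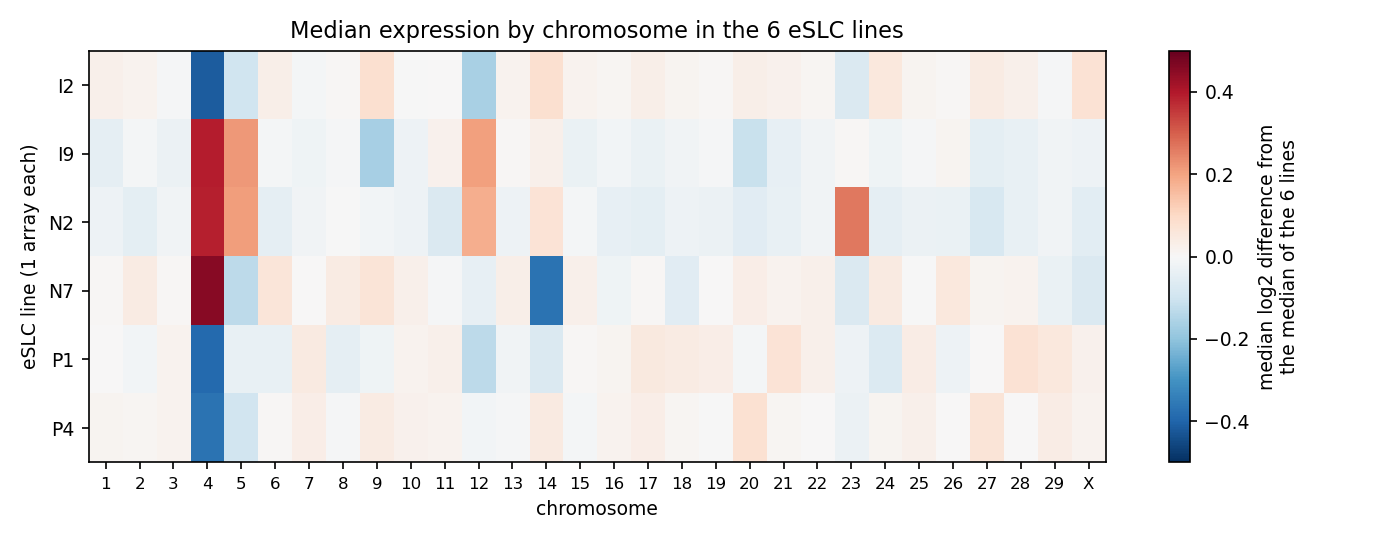
Median over genes, for each chromosome and eSLC line, of the log2 difference from the median of the 6 lines (red higher, blue lower; genes well above background on all 8 arrays). Chromosome 4 is higher in I9, N2 and N7 (0.39 to 0.45) and lower in I2, P1 and P4, chromosome 14 is lower in N7 (-0.37) and chromosome 23 is higher in N2 (0.26).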

How the data were processed

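RNA of 6 eSLC lines and 2 SC cultures was hybridized to 8 one-colour Agilent arrays. The authors deposited linear intensities of each spot from Feature Extraction version 11.5.1.1 and a table of intensities normalized in GeneSpring GX. The background-subtracted intensity was used. The deposited processed signal did not follow it in 6 of the 8 files (Spearman rho at most 0.00968 for 33472 probes) and was not used. List probes are those whose processed signal lay within 3% of the authors' normalized value over 1 common factor in at least 6 arrays. Outlier flags and control spots were left out. Of 43637 probes, 26731 matched RefSeq accessions of assembly ARS-UCD2.0, for 12602 genes, of which 8159 had more than 1 probe and were read from the brightest. Signals were divided by the array's 75th percentile, raised to a common floor and taken to log2. The number of arrays limits the precision.

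limma version 3.58.1 in R version 4.3.3 was fitted over all 8 arrays, by condition and again with N2 and N7 as groups of their own, with Benjamini-Hochberg adjustment. A gene was tested where all arrays of some group had it well above background. The fit was tested on simulated data. The source names call every sample replicate 1, so lines were numbered in accession order within an origin, no pairing was made, and p-values measure the spread between these samples. The SC pair that enters this spread is labelled by passage and not as separate lines. The comparisons, rules and gene lists were chosen with earlier results of these data known. The named genes are those with the largest gaps (10 each way for both lines, 12 for N7, 6 for N2, 4 for opposite directions), the chromatin genes of the study, and for each of 21 lists up to 4 members furthest from the IVP mean in N7 and those called. CDX2, GATA3, DCLK1, FOXA1, FOXA3, SOX17, DAB2, BMP2, SALL4, KLF4, VIM, COL1A1, SPARC, COL4A1, LAMC1, S100G, PAG10, PAG12, PAG15, SSLP1, PLAC8A, KRT18, RPLP0, RPS18, GRB10, TSSC4, ACTA2, POSTN, S100A4 and LUM were added after their values were seen, as were the chromosome medians. So were AFP, TTR, AMBP, HPX, APOE, APOM, ALB, FABP1, FABP2, CUBN, CDX1, MSX2 and ENO1. In the normexp alternative the median foreground took the place of the planned mean foreground, which was not used here. Figures were drawn with matplotlib version 3.10.9. Some genes are not reported here.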

Additional observations from a re-analysis of the deposited data

Results flagged for a closer look

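The 2 NT lines differed from each other under the same comparison, by the test of N7 against N2 itself (limma, adjusted p under 0.05 and at least 2-fold), for 142 genes. Each line is 1 array, so this test takes its spread from the pairs of the other groups, which for genes at the floor is the floor's own. With only the 4 arrays compared in the fit 0 genes were called. Among the genes named for 1 line, the difference of N7 from N2 on the log2 scale passed this test for the liver and yolk sac genes FETUB (10.80), HNF4A (8.80), AHSG (7.48) and APOH (6.59). It passed for COX7B2 (7.335), PCP4 (7.25), PDE6C (6.995), KLB (6.705), HABP2 (6.58), PRSS35 (6.42), SLC10A4 (6.16) and COL18A1 (5.71), all higher in N7. UNC93A (-5.39), BBOX1 (-5.83) and GABRP (-5.75) were lower in N7, and so was SCRT1 (-1.79), which was well above background in N2 alone. All of these genes were chosen for their gaps on the same arrays, so passing the test is no separate support for them. FETUB, APOH, COX7B2, PCP4, PDE6C, KLB, HABP2 and SLC10A4 were tested only because N7 had them above background. N2 and N7 lay on different slides, and with the slide as a block 23 genes were called.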

How the results depend on the processing

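Scaling to the median and quantile normalization kept all 8 counts within 1.5 times. With the authors' normalized values, 98 genes were called between NT- and IVP-eSLCs and 76 between N2 and IVP-eSLCs, 1318 genes were 2-fold apart between the means, and 275 lay beyond both IVP arrays in both lines, 1876 in N7 alone (472 higher, 1404 lower) and 1950 in N2 alone. With the filter on all 8 arrays, 20 genes were called for N7 against IVP-eSLCs and 6 for N7 against N2, and the counts without a test were 386, 13, 584 and 90. With only the 4 arrays compared in the fit, both of the calls of N7 fell to 0, and with the slide as a block to 80 (79 higher) and 23. With no filter 11 genes were called for N2. After normexp on the median signal, an alternative chosen after the data were seen, 256 genes were called for N7 against N2 (93 higher, 163 lower), N7 against IVP-eSLCs gave 136 higher and 64 lower, 14 genes lay beyond in both lines, and N2 alone had 154 higher and 15 lower. The mean of a gene's probes gave 80 genes in N2 alone. At 3-fold the counts were 222 between the means, 6 in both lines, 469 in N7 alone and 24 in N2 alone. Leaving out 1 line at a time gave 0 to 152 calls for NT- against IVP-eSLCs (152 without N2, 5 without I9), 128 to 172 for N7 against IVP-eSLCs, 0 to 0 for N2 and 186 to 186 for N7 against N2. It gave 667 to 1605 genes between the means (1605 without N2, 1437 without I9), 79 to 694 in both lines, 1158 to 1860 in N7 alone (1860 without I2) and 208 to 1304 in N2 alone (1304 without I9). The causes were not tested. Of the 154 genes called for N7, 149 were called after quantile normalization, 118 with the authors' values, 101 without I2, 86 without I9, 73 with the slide as a block and 14 with the filter on all 8 arrays. For 151 differences of named genes, 1661 alternatives left the call as it was, 79 lost it, 31 gained it and 0 turned a called difference. No paired analysis was possible because the labels number no replicates across origins.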
